A study of Rattus norvegicus with 16 samples.

Results

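The genes described here are those of the urea cycle and of amino acid breakdown in rat liver. They were chosen by symbol for what their products do, from 53 names, of which 51 were among the 17055 genes of the count files; Uroc1 and Mut were not analysed here. By role, 8 belong to the urea cycle and arginine use, 7 to glutamate, glutamine and the aminotransferases, 7 to tyrosine and tryptophan, 10 to serine, glycine and histidine, 3 to proline and ornithine, 12 to the branched-chain amino acids and propionate, and 4 to cysteine and lysine.

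When amino acids are broken down, aminotransferases move their nitrogen onto glutamate and aspartate, and the liver turns it into urea, which the kidney excretes. The cycle starts in the mitochondria of hepatocytes on the portal side of the lobule, where carbamoyl phosphate synthetase joins ammonia to bicarbonate and ornithine carbamoyltransferase makes citrulline, and it ends in the cytosol, where arginase splits arginine into urea and ornithine. Inducible nitric oxide synthase uses the same arginine to make nitric oxide, and the carbon skeletons left by the breakdown enzymes enter the citric acid cycle or glucose synthesis.

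The study asked whether the anesthetic alters the liver's response to sepsis in male Sprague-Dawley rats of 10 weeks. The septic rats underwent cecal ligation and puncture (CLP), an operation in which the cecum is tied off and pierced so that gut contents leak into the abdomen, and in controls a celiotomy was made and the cecum was put back. The Isoflurane-Sepsis and Isoflurane control groups were induced and kept on inhaled isoflurane, whereas the Propofol-Sepsis and Propofol control groups received ketamine with xylazine for induction and then intravenous propofol, all in oxygen, with liver taken at 8 h. Each group gave 4 RNA-seq libraries, each from the pooled tissue of 3 rats (16 libraries, 48 rats): in the isoflurane arm libraries 1 to 4 are septic and 5 to 8 are controls, and in the propofol arm 9 to 12 are septic and 13 to 16 are controls. The spread given below is therefore that between pools, and the spread between single rats is not seen. The libraries of the isoflurane and propofol arms carry different project names in their headings, so that between arms the maintenance anesthetic, the induction drugs and the sequencing project cannot be told apart.

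Between 14199422 and 49937173 reads fell on genes in a library. Levels are given as CPM, reads relative to the library's TMM-scaled total of reads on genes, and they are compared between libraries and not between genes, because CPM does not account for gene length. The libraries carried the defining markers of liver: the 8 hepatocyte markers, among them Alb and Ttr, summed to between 132400 and 180400 CPM. Library 4 stood apart from the other Isoflurane-Sepsis libraries. It was the lowest of its group in 33 of the 50 members tested (66.0%, against 25.8% of all genes tested), and its median member was at -0.87 on the log2 scale against the mean of the Isoflurane control group, compared with -0.44, -0.21 and -0.29 in libraries 1, 2 and 3. In the Propofol-Sepsis group library 10 was the lowest for 30 of 50 members (60.0%, against 35.1% of all genes), with a median member at -0.30 where the other libraries lay between -0.18 and -0.11. Several of the results that library 4 weighs on are given with and without it. In such tissue RNA, fewer cells of a type and less RNA per cell cannot be told apart.

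**Figure D1:**
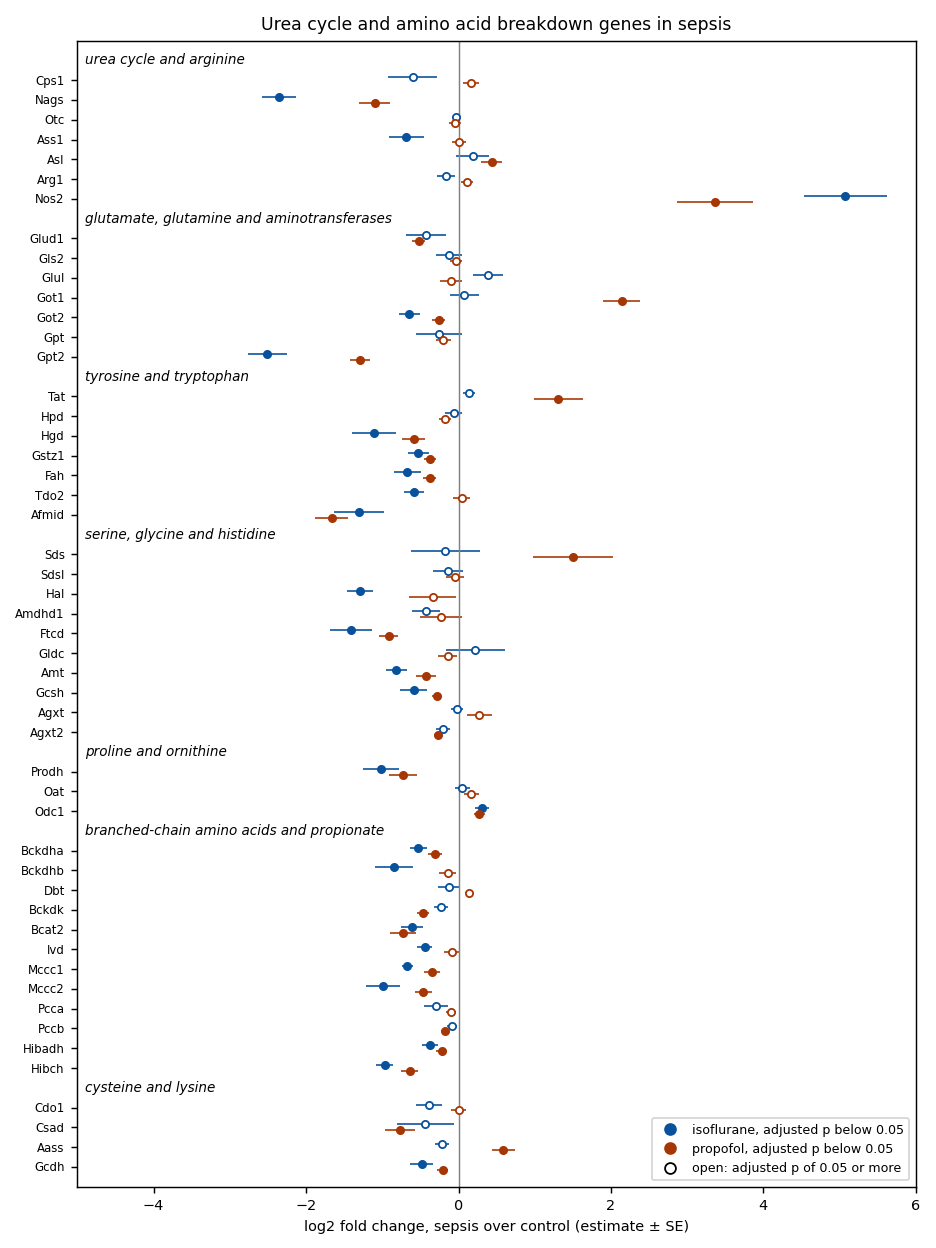
Log2 fold change of sepsis over control (x axis, estimate with SE) for the 50 members tested, by role, under isoflurane (blue) and propofol (brown), with filled points for an adjusted p below 0.05. Most filled points lie left of 0 under both anesthetics, Nos2 lies far to the right, and Got1, Tat, Sds and Aass have filled points right of 0 under propofol.

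In sepsis under isoflurane most of the members that changed fell. Of the 50 members with enough reads to be tested, 23 were lower in the Isoflurane-Sepsis group and 2 were higher (Nos2 and Odc1) at an adjusted p below 0.05 by edgeR's quasi-likelihood test with Benjamini-Hochberg adjustment over all genes tested. Among all 10361 genes tested, 24.4% were lower and 25.7% higher. The median member changed by -0.42 on the log2 scale and the median of all genes by 0.01, and 42 of the 50 members had an estimate below 0. In 26 members every Isoflurane-Sepsis library lay below every control library, and in 1 (Nos2) every one lay above; over all genes the shares were 24.4% and 24.3%. Without library 4 the test called 25 members lower and 3 higher, and the median member changed by -0.28. That fit lost no call and added Aass and Cps1 below control and Glul above it. The calls for Ass1, Gcdh, Gcsh and Odc1 were each lost without at least 1 other library. Of the hepatocyte markers 3 of 8 (Alb, Apoa1 and Apoa2) were lower and 1 higher in sepsis. Their summed levels were 152800 to 174700 CPM against 171000 to 180400 CPM in control, with overlap. Of the 8 tested markers of central hepatocytes 4 were lower and none higher (sums of 1031 to 1692 CPM against 2229 to 2479 CPM), and of 4 endothelial markers 3 were lower (49.8 to 64.0 CPM against 82.4 to 109 CPM), both without overlap. Of 5 tested markers of portal hepatocytes 2 (Aldh1b1 and Hsd17b13) were lower and none higher, and 4 estimates were below 0. Their sums were 1768 to 5335 CPM against 1911 to 2149 CPM in control, so the highest sums do not reflect most of these markers. Library 4 had the highest sums of its group for portal hepatocytes (5335 CPM, the others 1768 to 3840 CPM) and stellate cells (533 CPM, the others 260 to 336 CPM). It was also highest for the hepatocyte markers (174700 CPM, the others 152800 to 164600 CPM), neutrophils and monocytes (2080 CPM) and macrophages (354 CPM). For central hepatocytes (1031 CPM) and endothelium (49.8 CPM) library 4 was the lowest of its group. The part of these in the members' falls was not tested.

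In sepsis under propofol the same number of members fell, by less on the median, and more of them rose. Of 50 members tested, 23 were lower in the Propofol-Sepsis group and 7 were higher (Asl, Nos2, Got1, Tat, Sds, Odc1 and Aass), where 21.7% of all 10348 genes tested were lower and 20.4% higher. The median member changed by -0.19. In 19 members every Propofol-Sepsis library lay below every control library and in 8 every one lay above (21.1% and 21.2% of all genes). Leaving out 1 of the 8 libraries gave 17 to 23 members lower and 5 to 8 higher, where 33.5% to 41.3% of all genes were called. The calls for Amt, Asl, Bckdha, Gcdh, Got2, Hibadh, Mccc1, Odc1, Pccb and Sds were each lost without at least 1 library. When all 16 libraries were fitted together, 14 members were called lower. Of the hepatocyte markers 3 of 8 (Apoa1, Apoa2 and Ahsg) were lower and 1 higher, with summed levels of 132400 to 141000 CPM in sepsis and 135800 to 148900 CPM in control. Of the central markers 3 of 8 were lower and 1 higher (1845 to 1973 CPM against 1956 to 2647 CPM), and of the endothelial markers 2 of 4 were lower and 1 higher (78.4 to 82.2 CPM against 109.9 to 138 CPM). Of 5 tested portal markers 2 (Hsd17b13 and Cdh1) were lower and 1 (Pck1) higher, and 4 estimates were below 0. The portal sums were 1156 to 2201 CPM against 761.7 to 1123 CPM in control, without overlap. Their part was not tested.

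No library is shared by these comparisons. The members lower in both numbered 18, which is 78.3% of the 23 lower under isoflurane and 78.3% of the 23 lower under propofol; over all genes tested in both, the shared lower genes made up 61.4% and 68.9% of the lists. Ass1, Tdo2, Hal, Bckdhb and Ivd passed the test only under isoflurane, and Glud1, Agxt2, Bckdk, Pccb and Csad only under propofol, which does not show that these genes responded differently. Among the 18, the estimated fall was larger under isoflurane in 16, all but Afmid and Bcat2, with medians of -0.74 and -0.44 on the log2 scale. The test of the difference itself is given further on.

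In the urea cycle the activator Nags fell under both anesthetics, Ass1 fell under isoflurane, Asl rose under propofol, and Otc and Arg1 did not pass the test. Nags makes N-acetylglutamate, without which carbamoyl phosphate synthetase is inactive. Its level was 23.3, 14.95, 19.4 and 9.97 CPM in the Isoflurane-Sepsis libraries and 85.0, 91.1, 83.0 and 88.4 CPM in their controls. The groups did not overlap, and Nags was 5.11-fold lower in sepsis (log2 fold change -2.35 ± 0.22 (SE), adjusted p = 0.00011). Under propofol it was 43.4, 29.3, 50.8 and 54.4 CPM in sepsis and 95.1, 74.0, 88.6 and 123.1 CPM in controls. Again no sepsis library reached a control library, and the fall was 2.15-fold (log2 fold change -1.10 ± 0.20 (SE), adjusted p = 0.002). Without library 4 the isoflurane change was -2.17 (adjusted p = 2.49e-05).

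Cps1, the carbamoyl phosphate synthetase of the mitochondria and the first step of the cycle, was at 3853, 4747, 5065 and 1454 CPM in the Isoflurane-Sepsis libraries against 5152, 6010, 5924 and 5955 CPM in their controls. All sepsis libraries lay below all controls, with library 4 far below the rest, and the change did not pass the test (log2 fold change -0.60 ± 0.32 (SE), adjusted p = 0.146). Without library 4 it passed at a smaller size (-0.33 ± 0.11, adjusted p = 0.0333). Under propofol Cps1 was 2870, 2809, 2023 and 2364 CPM in sepsis and 2268, 2040, 2283 and 2375 CPM in controls, groups that overlapped (log2 fold change 0.16 ± 0.11 (SE), adjusted p = 0.251).

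The 250 bases before the annotated start of Cps1 and of Nags are shown because they open the first reaction of the cycle and its activator. They are the RefSeq sequences of the GRCr8 assembly, 5′ to 3′ on the gene's own strand, which is plus for both: chr9:76063613-76063862 for Cps1 and chr10:87598266-87598515 for Nags. Each window was searched on both strands for an HNF4-type site (CAAAGTCCA), a C/EBP-type site (TTGCNNAA), a cAMP response element (TGACGTCA) and a CCAAT box (CCAAT), and matches are in capitals.
Cps1: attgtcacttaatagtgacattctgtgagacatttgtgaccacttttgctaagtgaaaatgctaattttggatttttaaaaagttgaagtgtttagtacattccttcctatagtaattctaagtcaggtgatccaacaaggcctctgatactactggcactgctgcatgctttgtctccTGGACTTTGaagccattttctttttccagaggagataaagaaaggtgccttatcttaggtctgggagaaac
Nags: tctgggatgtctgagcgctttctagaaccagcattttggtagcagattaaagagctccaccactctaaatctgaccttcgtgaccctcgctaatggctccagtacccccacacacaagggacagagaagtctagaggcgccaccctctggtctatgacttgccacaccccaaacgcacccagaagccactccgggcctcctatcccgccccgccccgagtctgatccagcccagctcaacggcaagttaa
The Cps1 window held the HNF4-type letters once, on the opposite strand, with the first base 71 bases before the start. Those letters were present in 0.338% of 33469 such windows of the rat genome, and among the 39 members with a window in Agxt2 and Cps1. No searched motif was found in the Nags window. Hnf4a itself, a nuclear receptor that drives many hepatocyte genes, was lower in sepsis under isoflurane (log2 fold change -1.06 ± 0.11 (SE), adjusted p = 0.000155) and under propofol (-0.73 ± 0.06 (SE), adjusted p = 5.63e-05); the match of letters is a description.

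Otc, the ornithine carbamoyltransferase that makes citrulline, was 199.7, 195.4, 194.4 and 199.6 CPM in the Isoflurane-Sepsis libraries and 197.5, 198.8, 209.6 and 201.0 CPM in their controls, and 147.2, 156.1, 130.3 and 137.2 CPM and 134.3, 159.0, 140.9 and 152.6 CPM in the Propofol-Sepsis and Propofol control libraries. The groups overlapped within each anesthetic, with changes of -0.03 ± 0.06 and -0.05 ± 0.08 (SE, adjusted p = 0.697 and 0.664). Ass1, the argininosuccinate synthetase that brings in aspartate, was 1803, 2291, 2055 and 945.3 CPM in Isoflurane-Sepsis and 2699, 2940, 2961 and 2862 CPM in control, without overlap (log2 fold change -0.69 ± 0.23 (SE), adjusted p = 0.0338). That call was lost without library 1, 5, 6, 7 or 8, with an adjusted p of up to 0.0748, and without library 4 the change was -0.48 ± 0.09 (adjusted p = 0.00311). Under propofol Ass1 was 1552, 1372, 1238 and 1463 CPM in sepsis and 1352, 1209, 1550 and 1461 CPM in control, with overlap (0.01 ± 0.09 (SE), adjusted p = 0.957).

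Asl, the lyase that releases arginine from argininosuccinate, was 748.5, 1152, 1637 and 1049 CPM in the Isoflurane-Sepsis libraries and 986.4, 1092, 870.3 and 1114 CPM in their controls, which overlapped (log2 fold change 0.18 ± 0.21 (SE), adjusted p = 0.501). Under propofol the sepsis libraries read 477.3, 641.3, 414.2 and 420.7 CPM and the controls 398.8, 303.4, 377.5 and 360.2 CPM. Each of them lay above each control, a 1.35-fold rise (log2 fold change 0.43 ± 0.14 (SE), adjusted p = 0.0329) that was lost without library 9, 14, 15 or 16 (adjusted p up to 0.0912). Arg1, the liver arginase, was 1332, 1824, 1588 and 1396 CPM in Isoflurane-Sepsis, 1641, 1836, 1555 and 1866 CPM in Isoflurane control, 1379, 1538, 1351 and 1263 CPM in Propofol-Sepsis and 1238, 1116, 1400 and 1343 CPM in Propofol control. Sepsis and control overlapped under both anesthetics (changes of -0.16 ± 0.12 and 0.11 ± 0.08, SE, adjusted p = 0.262 and 0.306). Arg2, the arginase of mitochondria outside the cycle, had 0 to 9 reads in a library, too few to be tested.

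**Figure D2:**
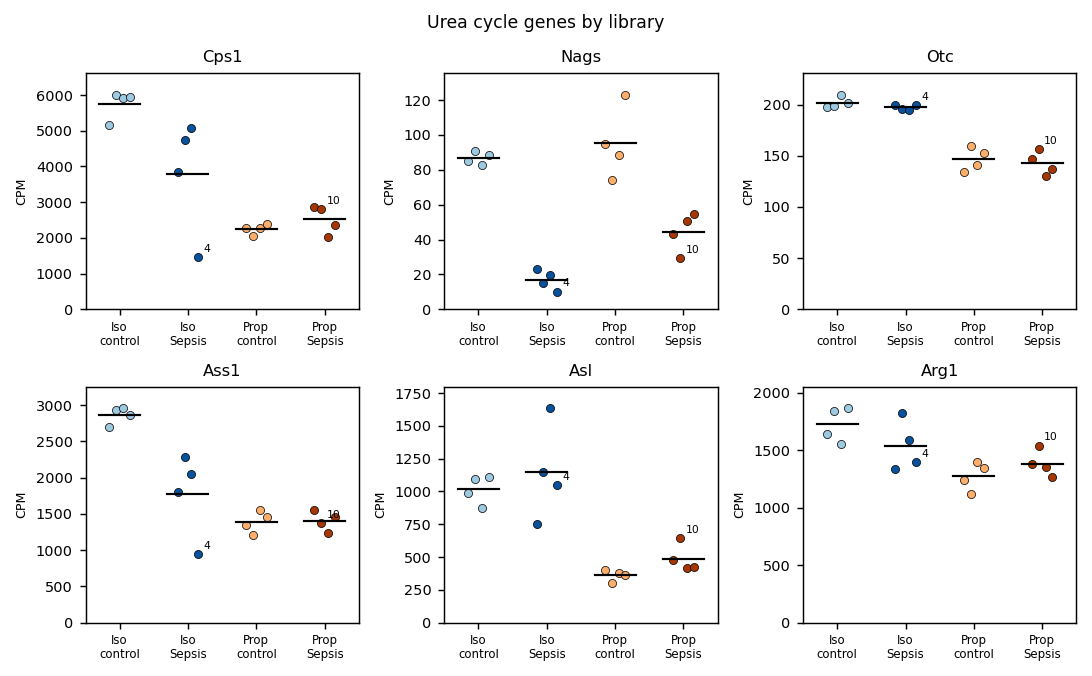
Levels of 6 urea cycle genes in CPM (y axis, starting at 0) in each of the 16 libraries (points) by group (x axis), with lines at group means and libraries 4 and 10 numbered. Nags is lower in both sepsis groups, Cps1 and Ass1 are lowest in library 4 within the isoflurane arm, and Cps1, Otc, Ass1, Asl and Arg1 are higher in the isoflurane controls than in the propofol controls.

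Nos2, the inducible nitric oxide synthase, showed the largest rise of any member tested under both anesthetics. It was 3.39, 9.22, 14.2 and 6.47 CPM in the Isoflurane-Sepsis libraries and 0.188, 0.248, 0.0929 and 0.354 CPM in their controls, a 33.6-fold rise (log2 fold change 5.07 ± 0.54 (SE), adjusted p = 0.0001965). Under propofol it was 3.16, 2.3, 2.3 and 1.92 CPM in sepsis and 0.2575, 0.05825, 0.524 and 0.048 CPM in controls, a 10.3-fold rise (log2 fold change 3.37 ± 0.50 (SE), adjusted p = 0.000645). Sepsis and control did not overlap under either anesthetic, but the control levels rest on 2 to 17 reads in an Isoflurane control library and 1 to 11 in a Propofol control library, so the size of the rise rests on few reads. Between the control groups Nos2 had too few reads to be tested. It entered the fits of sepsis against control only through the sepsis libraries, where it was high, and its rank as the largest rise carries that limit. Markers of neutrophils and monocytes moved with it: 6 of the 8 tested rose under each anesthetic (S100a8, S100a9, Itgam, Csf3r, Ngp and Lcn2). Among all genes tested, 25.7% were higher in sepsis under isoflurane and 20.4% under propofol. Ngp had 0 to 3 reads in an Isoflurane control library and 0 to 4 in a Propofol control library. It entered the fits only through the sepsis libraries, as Nos2 did. The summed level of all 9 was 1259 to 2080 CPM in Isoflurane-Sepsis against 150 to 202 CPM in control, and 1162 to 3283 CPM in Propofol-Sepsis against 389 to 646 CPM in control. Most of those sums was Lcn2, which hepatocytes also make, and none of the 9 was at 0 in every library. Of the 6 macrophage and Kupffer cell markers, 4 rose and 1 (Clec4f) fell under isoflurane, and 1 (Marco) rose and Clec4f fell under propofol, with summed levels of 258 to 354 CPM against 237 to 298 CPM and of 240 to 291 CPM against 272 to 314 CPM. Their part in the rise of Nos2 was not tested.

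Among the enzymes that handle glutamate and glutamine, the mitochondrial aminotransferases Gpt2 and Got2 fell under both anesthetics, and the cytosolic Got1 rose under propofol. Gpt2, the mitochondrial alanine aminotransferase, was 17.3, 16.95, 13.01 and 6.59 CPM in the Isoflurane-Sepsis libraries against 66.5, 77.1, 81.2 and 82.5 CPM in controls, a 5.7-fold fall and the largest of any member (log2 fold change -2.51 ± 0.26 (SE), adjusted p = 0.000162). Under propofol it was 47.2, 30.5, 40.7 and 37.8 CPM in sepsis and 92.05, 81.7, 102.6 and 103.8 CPM in controls, a 2.45-fold fall (log2 fold change -1.29 ± 0.13 (SE), adjusted p = 9.78e-05). The groups did not overlap in either arm. Gpt, the cytosolic alanine aminotransferase, did not pass the test (-0.25 ± 0.30 under isoflurane and -0.20 ± 0.10 under propofol, SE), and without library 4 its isoflurane estimate was 0.002 ± 0.15 (adjusted p = 0.992).

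Got1 is the cytosolic aspartate aminotransferase. The Isoflurane-Sepsis libraries read 812.8, 1339, 1482 and 1086 CPM and their controls 964.2, 1237, 970.7 and 1323 CPM, with overlap (log2 fold change 0.08 ± 0.19 (SE), adjusted p = 0.763). The Propofol-Sepsis libraries read 672.7, 982.3, 580.0 and 564.9 CPM and their controls 189.0, 96.5, 148.8 and 197.9 CPM. Each of these sepsis libraries was above each control, by 4.41-fold on the fitted mean (log2 fold change 2.14 ± 0.25 (SE), adjusted p = 0.000187). The 4 Propofol control libraries were the lowest of all 16, and the other 3 groups lay between 565 and 1482 CPM. Its mitochondrial counterpart Got2 fell under both anesthetics (log2 fold change -0.64 ± 0.14 (SE), adjusted p = 0.00484 under isoflurane, -0.26 ± 0.08 (SE), adjusted p = 0.0279 under propofol), and the propofol call was lost without library 10, 11, 14, 15 or 16. RefSeq names 6 pseudogenes after Got2, and 2 each after Ass1 and Glul, and how the counting shared reads between such copies is not known here.

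The promoter windows of Got1 (chr1:252329872-252330121, minus strand) and Gpt2 (chr19:37732760-37733009, minus strand) are shown because these aminotransferases had the largest rise under propofol after Nos2 and the largest fall under isoflurane, with matches to the same 4 motifs in capitals.
Got1: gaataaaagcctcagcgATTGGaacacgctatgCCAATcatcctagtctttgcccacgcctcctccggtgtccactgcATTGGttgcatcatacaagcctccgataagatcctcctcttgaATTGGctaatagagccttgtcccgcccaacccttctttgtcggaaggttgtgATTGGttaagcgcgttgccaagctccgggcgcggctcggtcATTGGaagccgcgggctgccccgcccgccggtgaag
Gpt2: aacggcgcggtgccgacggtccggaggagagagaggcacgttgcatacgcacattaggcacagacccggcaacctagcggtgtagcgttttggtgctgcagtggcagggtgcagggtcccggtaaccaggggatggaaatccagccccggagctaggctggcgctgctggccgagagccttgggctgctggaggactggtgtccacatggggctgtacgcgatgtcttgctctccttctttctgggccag
The Got1 window held 6 CCAAT boxes, which were found by the same search and counted after its values were known. The first bases lay 233, 217, 172, 129, 77 and 36 bases before the start, and 5 of the matches read ATTGG, the box on the opposite strand. At least 1 CCAAT box was present in 34.0% of all windows and 6 or more in 0.0329%. The Gpt2 window held no match.

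Of the rest of this role, Glud1, the glutamate dehydrogenase that releases ammonia in mitochondria, fell under propofol (log2 fold change -0.52 ± 0.09 (SE), adjusted p = 0.00115); under isoflurane it was at -0.42 ± 0.26 (SE, adjusted p = 0.202) with library 4 at 316 CPM and libraries 1, 2 and 3 at 532, 744 and 846 CPM. Gls2, the liver glutaminase, and Glul, the glutamine synthetase of hepatocytes around the central vein, did not pass the test under either anesthetic in all libraries. Without library 4 Glul rose under isoflurane (0.54 ± 0.15, adjusted p = 0.0153).

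Of the tyrosine pathway the last 3 enzymes fell under both anesthetics, and the first rose under propofol. Tat, the tyrosine aminotransferase that commits tyrosine to breakdown and is induced by glucocorticoids and glucagon, was 2532, 2513, 2570 and 3044 CPM in the Isoflurane-Sepsis libraries and 2377, 2516, 2322 and 2466 CPM in their controls. All but library 2 of these sepsis libraries were above every control, and the change did not pass the test (log2 fold change 0.14 ± 0.08 (SE), adjusted p = 0.167). The Propofol-Sepsis libraries read 2480, 2413, 2630 and 2253 CPM and the Propofol control libraries 1275, 353.5, 1090 and 1209 CPM, so that every sepsis library was above every control, by 2.48-fold (log2 fold change 1.31 ± 0.32 (SE), adjusted p = 0.00869). Library 14 was far below the other Propofol controls, and without it the rise was 1.03 (adjusted p = 0.000137).

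The promoter window of Tat (chr19:54856354-54856603, plus strand, GRCr8) is shown for comparison with that of Got1, since both genes were low in the Propofol control libraries alone. It held 3 CCAAT boxes, in capitals, and none of the other motifs.
Tat: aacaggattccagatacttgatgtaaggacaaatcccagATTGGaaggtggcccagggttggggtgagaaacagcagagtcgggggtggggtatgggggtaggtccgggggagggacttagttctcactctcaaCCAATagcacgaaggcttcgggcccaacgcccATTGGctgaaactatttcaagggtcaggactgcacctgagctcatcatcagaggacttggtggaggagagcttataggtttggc

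Further down the same pathway, Hpd did not pass the test under either anesthetic (-0.06 ± 0.11 and -0.18 ± 0.08, SE). The enzymes after it fell under both: Hgd, the homogentisate dioxygenase, Gstz1, the maleylacetoacetate isomerase, and Fah, the fumarylacetoacetase that ends the pathway. Hgd, the one with the largest fall, was 67.2, 84.6, 105.4 and 34.9 CPM in the Isoflurane-Sepsis libraries and 140.3, 155.4, 158.2 and 180.1 CPM in controls (log2 fold change -1.11 ± 0.28 (SE), adjusted p = 0.0109), and 96.05, 59.1, 76.6 and 85.1 CPM in Propofol-Sepsis and 125.4, 108.8, 100.2 and 139.7 CPM in control (-0.59 ± 0.15 (SE), adjusted p = 0.0116). Every sepsis library was below every control in both arms, and library 4 was again the lowest. Without library 4 the isoflurane change of Hgd was -0.88 (adjusted p = 0.00282). Gstz1 changed by -0.53 ± 0.14 and -0.38 ± 0.08 and Fah by -0.67 ± 0.18 and -0.38 ± 0.09 (log2, SE, isoflurane first; adjusted p from 0.00409 to 0.0133).

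On the tryptophan side, Tdo2, the dioxygenase that opens the indole ring, fell under isoflurane (log2 fold change -0.58 ± 0.14 (SE), adjusted p = 0.00715) and changed by 0.04 ± 0.11 under propofol (SE, adjusted p = 0.7925). Afmid, the formamidase that follows it, was 16.3, 21.9, 22.5 and 6.04 CPM in Isoflurane-Sepsis and 37.35, 42.5, 44.8 and 41.4 CPM in control, and 22.8, 24.3, 17.3 and 20.99 CPM in Propofol-Sepsis and 48.3, 67.3, 100 and 53.9 CPM in control. It fell 2.47-fold under isoflurane (log2 fold change -1.31 ± 0.33 (SE), adjusted p = 0.009935) and 3.17-fold under propofol (-1.66 ± 0.21 (SE), adjusted p = 0.000323), with no overlap. Without library 4 the isoflurane change was -1.03 (adjusted p = 0.000548).

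In the role of serine, glycine and histidine 4 of 10 members fell under isoflurane (Hal, Ftcd, Amt and Gcsh), and under propofol 4 fell (Ftcd, Amt, Gcsh and Agxt2) and Sds rose. Among all genes tested, 24.4% were lower under isoflurane, and under propofol 21.7% were lower and 20.4% higher. Hal, the histidase that starts histidine breakdown, was 34.3, 25.8, 47.4 and 35.8 CPM in the Isoflurane-Sepsis libraries and 80.7, 88.9, 86.5 and 96.8 CPM in their controls, a 2.45-fold fall without overlap (log2 fold change -1.29 ± 0.17 (SE), adjusted p = 0.00043). Under propofol it was 127.0, 58.4, 142.2 and 157.5 CPM in sepsis and 187.9, 109.2, 110.1 and 203.8 CPM in controls, which overlapped (-0.34 ± 0.31 (SE), adjusted p = 0.397). Ftcd, which ends the pathway by passing the formimino group to folate, was 114.7, 138.9, 126.3 and 48.7 CPM in Isoflurane-Sepsis and 288.4, 270.8, 301.8 and 284.5 CPM in control (log2 fold change -1.41 ± 0.27 (SE), adjusted p = 0.00299), and 143.2, 93.75, 113.4 and 127.8 CPM in Propofol-Sepsis and 195.0, 242.0, 234.0 and 226.4 CPM in control (-0.91 ± 0.13 (SE), adjusted p = 0.000443). No sepsis library reached a control library in either arm, and without library 4 the isoflurane change was -1.17 (adjusted p = 4.62e-05). Amdhd1, between them in the pathway, did not pass (-0.43 ± 0.18 and -0.23 ± 0.28, SE).

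Of the glycine cleavage proteins, Amt and Gcsh fell under both anesthetics (Amt changed by -0.81 ± 0.14 and -0.42 ± 0.13, Gcsh by -0.59 ± 0.18 and -0.29 ± 0.06, log2, SE, isoflurane first), while the decarboxylase Gldc did not pass (0.22 ± 0.38 and -0.14 ± 0.13). The isoflurane call of Gcsh was lost without library 7 or 8, and the propofol call of Amt without library 11, 14 or 15. Sds, the serine dehydratase that feeds serine into glucose synthesis, spread widely: 93.5, 169.5, 311.0 and 59.35 CPM in Isoflurane-Sepsis and 166.1, 217.6, 128.3 and 210.0 CPM in control, with overlap (log2 fold change -0.18 ± 0.45 (SE), adjusted p = 0.768). It was 82.1, 122.6, 56.4 and 54.8 CPM in Propofol-Sepsis and 40.0, 5.475, 17.9 and 47.4 CPM in Propofol control, every sepsis library being above every control (log2 fold change 1.503 ± 0.52 (SE), adjusted p = 0.0421). That rise was lost without library 9, 10, 13 or 15 (adjusted p up to 0.102), with no filter on low counts (adjusted p = 0.0523) and with DESeq2. Agxt2, a mitochondrial aminotransferase, fell under propofol alone by the test (log2 fold change -0.27 ± 0.06 (SE), adjusted p = 0.004135), and Sdsl and Agxt did not pass in either arm.

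Prodh, the proline dehydrogenase, was 16.5, 21.98, 20.7 and 9.31 CPM in the Isoflurane-Sepsis libraries against 33.7, 29.5, 39.4 and 36.4 CPM in controls (log2 fold change -1.01 ± 0.23 (SE), adjusted p = 0.00695), and 22.1, 12.4, 24.6 and 22.1 CPM in Propofol-Sepsis against 29.9, 31.05, 35.6 and 37.1 CPM in control (-0.73 ± 0.18 (SE), adjusted p = 0.01). Neither arm overlapped. Oat, the ornithine aminotransferase that leads ornithine toward glutamate, did not pass (0.05 ± 0.10 and 0.17 ± 0.10, SE). Odc1, which leads ornithine into polyamines, rose slightly under isoflurane (log2 fold change 0.31 ± 0.10 (SE), adjusted p = 0.0242) and propofol (0.27 ± 0.08 (SE), adjusted p = 0.0176). Its isoflurane call was lost without library 2, 5, 7 or 8 and with library totals as the only scaling, its propofol call without library 11, 13 or 16, and RefSeq names 10 pseudogenes after it.

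The branched-chain and propionate enzymes had falling members and no rising ones. All 12 estimates were below 0 under isoflurane and 11 of 12 under propofol, all but Dbt, and 8 passed as lower in each arm with none higher. The shares of all genes tested that were lower were 24.4% under isoflurane and 21.7% under propofol. Bckdha of the branched-chain keto acid dehydrogenase, the aminotransferase Bcat2, both methylcrotonyl-CoA carboxylase subunits Mccc1 and Mccc2, and the valine pathway enzymes Hibadh and Hibch were the 6 that fell in both. The largest falls were those of Mccc2 (log2 fold change -0.99 ± 0.22 (SE), adjusted p = 0.00625) and Hibch (-0.97 ± 0.11 (SE), adjusted p = 0.000289) under isoflurane and of Bcat2 (-0.73 ± 0.17 (SE), adjusted p = 0.00784) and Hibch (-0.64 ± 0.11 (SE), adjusted p = 0.0017) under propofol. Without library 4 the isoflurane changes were -0.81 for Mccc2 and -0.91 for Hibch. Hibch was 7.46 to 10.3 CPM in Isoflurane-Sepsis against 16.2 to 18.7 CPM in control and 15.45 to 20.3 CPM in Propofol-Sepsis against 25.1 to 32.3 CPM in control. Bckdhb and Ivd fell under isoflurane alone by the test, and Pccb and Bckdk, the kinase that switches the dehydrogenase off, under propofol alone. The propofol calls were lost for Bckdha without library 14 or 15, for Mccc1 without 14, 15 or 16, for Hibadh without 10, 11, 12, 14 or 16, and for Pccb without any of the 8 but library 13.

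Aass, the bifunctional enzyme that starts lysine breakdown, was 1631, 1592, 1933 and 1948 CPM in the Isoflurane-Sepsis libraries and 2065, 1978, 2141 and 2117 CPM in their controls, each sepsis library below each control, without passing the test (log2 fold change -0.22 ± 0.09 (SE), adjusted p = 0.0679). Under propofol it was 1386, 1557, 1124 and 1460 CPM in sepsis and 1022, 836.8, 700.9 and 1094 CPM in control, with each sepsis library above each control (log2 fold change 0.59 ± 0.15 (SE), adjusted p = 0.009825). Gcdh, further along the lysine pathway, fell in both arms (log2 fold change -0.49 ± 0.15 (SE), adjusted p = 0.0238 and -0.21 ± 0.07 (SE), adjusted p = 0.0419), but its isoflurane call was lost without library 5 or 7 and its propofol call without library 9, 10, 11, 14, 15 or 16. Csad, on the way from cysteine to taurine, fell under propofol (-0.77 ± 0.19 (SE), adjusted p = 0.01015), and Cdo1, the cysteine dioxygenase before it, did not pass (-0.39 ± 0.17 and 0.00 ± 0.10, SE).

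**Figure D3:**
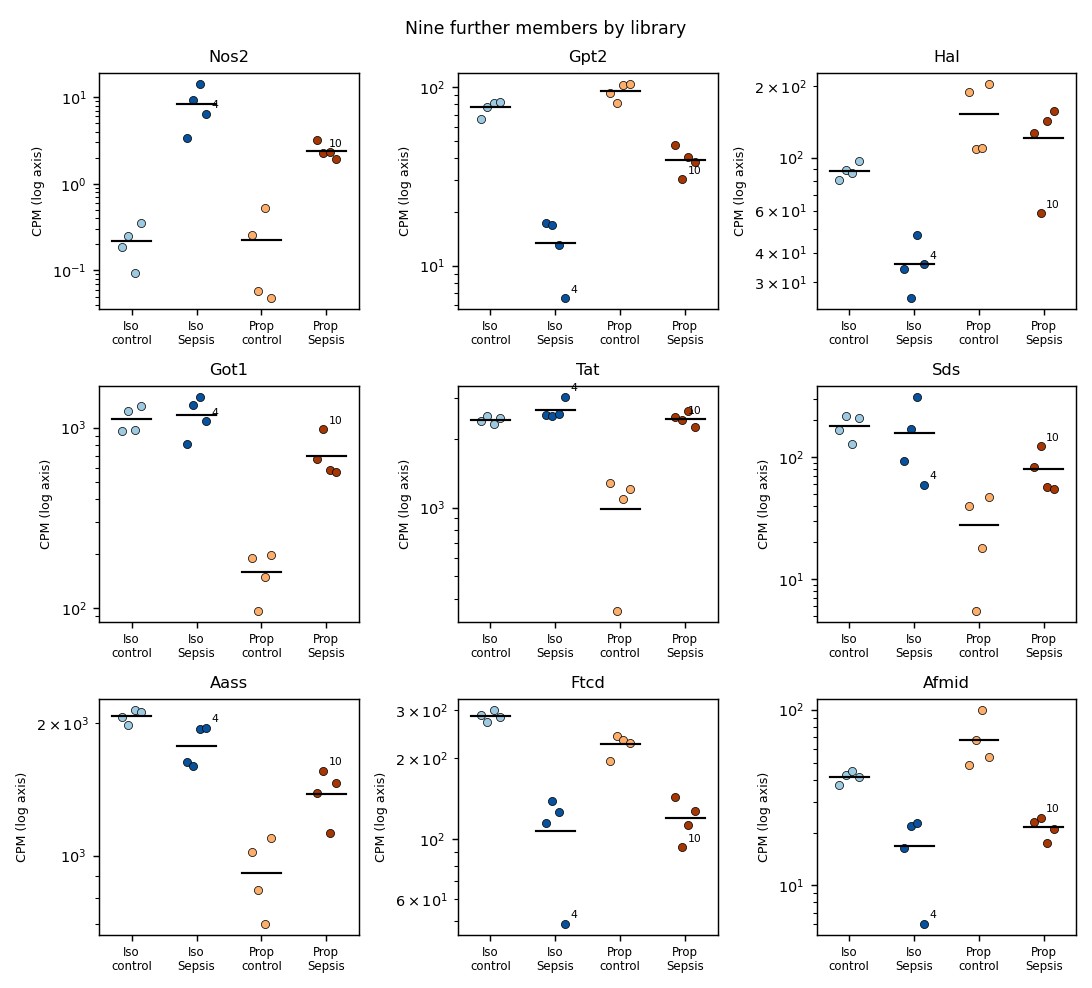
CPM on log axes (y) in each library (points) by group (x), for 9 further members, with lines at group means and libraries 4 and 10 numbered. Nos2 is high in both sepsis groups, Gpt2, Ftcd and Afmid are low in both, Hal is lowest in Isoflurane-Sepsis, and Got1, Tat, Sds and Aass are lowest in the Propofol controls.

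The low levels of library 4 were spread over most of the 7 roles. Against the Isoflurane control mean, its median member stood on the log2 scale at -1.07 for glutamate and the aminotransferases, -1.05 for tyrosine and tryptophan, -1.10 for serine, glycine and histidine, and -0.73 for the branched-chain role, while proline and ornithine stood at 0.10. Library 10 had the lowest medians of the Propofol-Sepsis group in the roles of glutamate (-0.42), tyrosine and tryptophan (-0.54), serine, glycine and histidine (-0.34) and the branched-chain amino acids (-0.42), and the highest for the urea cycle and arginine (0.27).

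**Figure D4:**
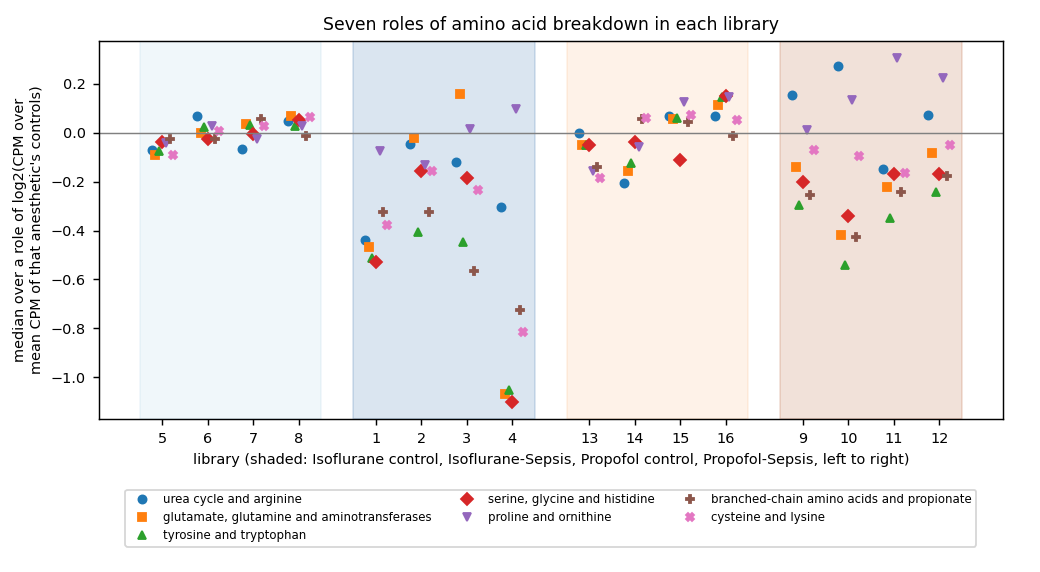
For each library (x axis, grouped and shaded by group) the median over the members of a role of log2 CPM relative to the mean of the controls under the same anesthetic (y axis), with 1 marker shape for each of 7 roles. Library 4 lies lowest of all for most roles, with medians down to -1.10, and the control libraries lie near 0.

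The Isoflurane and Propofol control groups already differed in these genes, and mostly in 1 direction. In the Isoflurane controls 25 of 49 members tested were higher and 11 lower, where 43.3% of all 10314 genes differed (21.6% higher and 21.7% lower), and the median member was 0.17 higher on the log2 scale. In 25 members every Isoflurane control library was above every Propofol control library, and in 8 below (20.4% and 20.0% of all genes). With library totals as the only scaling, the median of all genes moved to -0.15 and 18 members were higher and 13 lower; relative to all genes the median member stayed at 0.17. The 8 hepatocyte markers moved alongside: 6 were higher in the Isoflurane controls and none lower, with summed levels of 171000 to 180400 CPM against 135800 to 148900 CPM. Markers of portal hepatocytes that are no members passed as higher in 2 of 5 tested (Pck1 and Hsd17b13), and those of central hepatocytes in 3 of 8 with 3 lower. Their part in the members' differences was not tested. Leaving out 1 library gave 21 to 25 members higher and 9 to 11 lower, where 35.8% to 41.5% of all genes were called. The calls lost in at least 1 of these fits were those for Agxt2, Amdhd1, Fah, Gpt2, Hibadh and Pccb. With all 16 libraries in one fit 17 of 50 members were higher and 8 lower, where 2793 of 10621 genes were called. The calls lost there were those for Glud1, Gpt, Gpt2, Hgd, Fah, Afmid, Ftcd, Agxt2, Dbt, Hibadh and Csad.

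All 5 cycle enzymes were among the higher ones: Cps1 by 2.57-fold (log2 fold change 1.36 ± 0.07 (SE), adjusted p = 1.35e-06), Asl by 2.82-fold (1.497 ± 0.10 (SE), adjusted p = 4.05e-06), Ass1 by 2.06-fold (1.04 ± 0.07 (SE), adjusted p = 6.05e-06), and Otc and Arg1 by 0.46 ± 0.06 and 0.44 ± 0.08 (log2, SE). Each of the 5 was without overlap between the control groups. Nags, the activator, was not (-0.13 ± 0.12, adjusted p = 0.413). The 2 members with the largest differences were Got1, 7.11-fold higher (log2 fold change 2.83 ± 0.21 (SE), adjusted p = 8.07e-06), and Sds, 6.51-fold higher (2.70 ± 0.47 (SE), adjusted p = 0.00105). Tat (1.30 ± 0.30 (SE), adjusted p = 0.00557) and Aass (1.18 ± 0.12 (SE), adjusted p = 3.84e-05) were also higher. Without library 14, the lowest Propofol control for all of them but Aass, Got1 was higher by 2.65, Sds by 2.37 and Tat by 1.02. Among the lower members were Glul, 3.22-fold lower in the Isoflurane controls (log2 fold change -1.69 ± 0.15 (SE), adjusted p = 2.14e-05), Bcat2 (-0.91 ± 0.10), Amdhd1 (-0.80 ± 0.24), Hal (-0.79 ± 0.19), Hibch (-0.72 ± 0.09) and Afmid (-0.70 ± 0.19, log2, SE). Glul was 86.9 to 126 CPM in the Isoflurane controls and 264 to 421 CPM in the Propofol controls.

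Between the sepsis groups fewer members differed. In Isoflurane-Sepsis 8 of 50 were higher than in Propofol-Sepsis (Otc, Asl, Nos2, Got1, Hpd, Gldc, Oat and Pccb) and 9 lower (Nags, Glul, Got2, Gpt2, Hal, Amdhd1, Amt, Bcat2 and Hibch), against 10.6% and 8.66% of all 10272 genes. In 8 members every Isoflurane-Sepsis library was above every Propofol-Sepsis library and in 10 below (12.9% and 12.6% of all genes). With library totals alone the split was 5 higher and 14 lower, and without library 4 it was 12 higher and 8 lower. Asl was 2.34-fold higher (log2 fold change 1.23 ± 0.24 (SE), adjusted p = 0.0156), Hal 3.39-fold lower (-1.76 ± 0.30 (SE), adjusted p = 0.0119) and Gpt2 2.9-fold lower (-1.54 ± 0.27 (SE), adjusted p = 0.01285). When library 9, 11 or 12 was left out, 1 or 2 members were called higher and 5 lower. Over all genes these fits called 2.78%, 3.02% and 2.41%, against 19.3% with all 8 libraries. Glul, Gpt2, Hal, Amt, Hibch and Oat kept their calls without any 1 library. Of the hepatocyte markers 5 of 8 were higher in Isoflurane-Sepsis and none lower (152800 to 174700 CPM against 132400 to 141000 CPM), and all 4 endothelial markers were lower (49.8 to 64.0 CPM against 78.4 to 82.2 CPM), sums that did not overlap. Their part in the members' differences was not tested.

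Whether the response to sepsis differed between the anesthetics was tested in a fit of all 16 libraries, as the isoflurane change minus the propofol change. Of 50 members 4 passed, all lower, against 2.72% of the 10621 genes tested (1.06% lower and 1.66% higher): Got1 (-2.08 ± 0.33, adjusted p = 0.0106), Nags (-1.26 ± 0.31, adjusted p = 0.0463), Gpt2 (-1.23 ± 0.29, adjusted p = 0.0403) and Aass (-0.82 ± 0.18, adjusted p = 0.0319; log2, SE). None passed as higher. In 37 of 50 members the estimate was below 0, with a median of -0.29, or -0.15 without library 4. By edgeR 14 members were lower and 0 higher at an unadjusted p below 0.05. Over all 10621 genes 2452 had such a p in either direction. DESeq2 called 6 members lower, with Tat and Tdo2 added, and 0 higher, where it called 847 of the 10621 genes. These differences are of several kinds. Nags and Gpt2 fell in both arms and further under isoflurane, from control levels of 83.0 to 91.1 and 74.0 to 123.1 CPM for Nags and 66.5 to 82.5 and 81.7 to 103.8 CPM for Gpt2. Got1 and Aass rose under propofol alone by the test, from control levels below those of the isoflurane arm, and in the sepsis groups they read 812.8 to 1482 and 564.9 to 982.3 CPM for Got1 and 1592 to 1948 and 1124 to 1557 CPM for Aass.

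At an adjusted p below 0.05, Got1 passed in every alternative fit and without any 1 library (adjusted p from 9.87e-07 to 0.0281). Nags was lost without any of libraries 2, 3, 5, 6, 7, 8, 9, 11, 12, 13, 14 and 15 (adjusted p up to 0.094), Gpt2 without the same libraries other than 2 (up to 0.0855) and Aass without library 5, 6, 7, 8, 9, 12 or 14 (up to 0.0687). In the fits that lost these calls, 0.504% to 1.91% of all genes passed, against 2.72% in the fit of all 16 libraries. Without library 4 all 4 members passed, with Nags at -1.08 and Gpt2 at -1.004, where 3.5% of all genes passed. Tat gained the call without library 14 (-0.90, adjusted p = 0.00783). Without library 1 there were 7 of 50 members called, with Got2, Ivd and Tdo2 added, where 15.1% of all genes were called.

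Ratios of enzymes that share a substrate or catalyse the same reaction do not depend on scaling between libraries. Of 8 pairs, each under both anesthetics, none passed an exact permutation test over libraries after adjustment for 16 tests. The smallest p that 4 against 4 libraries allows is 0.0286, and it became 0.0653 on adjustment. In 7 of the tests the groups were fully apart and gave that p. Nos2 over Arg1, whose enzymes compete for arginine, was higher in sepsis by 5.22 log2 units under isoflurane and 3.64 under propofol. Nos2 had 1 to 17 reads in a control library, and with 2 reads added the differences were 4.85 and 3.03. In sepsis the mean log2 ratio was -7.70 under isoflurane and -9.17 under propofol, and Arg1 itself did not pass the test. Gpt over Gpt2, the cytosolic over the mitochondrial alanine aminotransferase, was higher by 2.21 and 1.09. Got1 over Got2 was higher by 2.42 under propofol, where under isoflurane it was higher by 0.72 with overlap (exact permutation p = 0.0857). Sdsl over Sds was at -3.30 ± 0.43 in Propofol-Sepsis and -1.42 ± 1.41 in control (log2, SD, n = 4), a difference of -1.88 at the smallest exact permutation p. Arg2 over Arg1 was higher by 1.76 under propofol, but on 0 to 9 reads of Arg2.

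**Figure D5:**
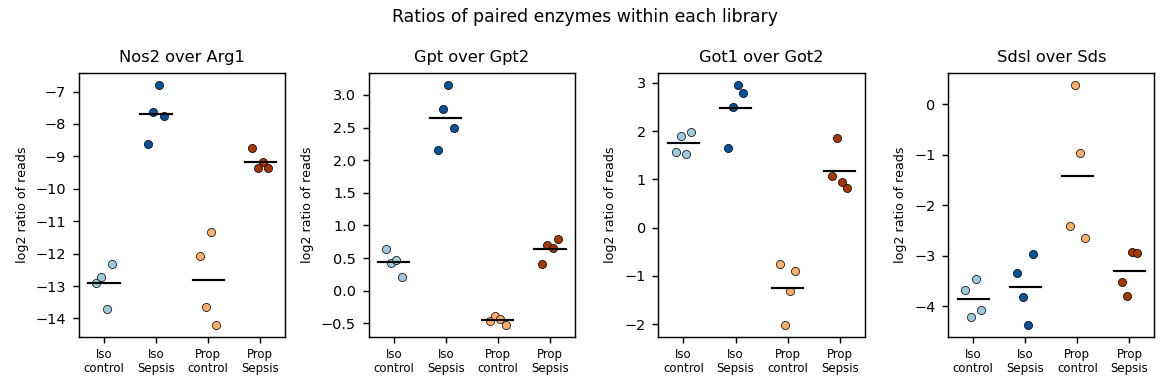
Log2 ratio of reads (y axis) of 4 pairs of enzymes within each library (points) by group (x axis), with lines at group means. Nos2 over Arg1 and Gpt over Gpt2 are higher in both sepsis groups, and Got1 over Got2 and Sdsl over Sds set the Propofol controls apart from the other 3 groups.

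The wider pathway, from a list of 35 further enzymes of amino acid breakdown, also held mostly falls. Under isoflurane 26 of 35 fell and 2 rose, where 24.4% of all genes tested were lower and 25.7% higher. Under propofol 21 fell and 1 rose, where the shares over all genes were 21.7% and 20.4%. The medians were -0.83 and -0.49 on the log2 scale. The falls included Dao, the D-amino acid oxidase (-1.71 ± 0.38 and -1.33 ± 0.15), Haao of the kynurenine pathway (-1.44 ± 0.26 and -1.13 ± 0.12), Shmt1, the cytosolic serine hydroxymethyltransferase (-1.48 ± 0.20 and -0.81 ± 0.11), and Abat, the aminotransferase of GABA and beta-alanine (-1.53 ± 0.33 and -0.87 ± 0.17; log2, SE, isoflurane first).

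Of 16 carriers tested that bring amino acids to these enzymes, 4 fell and 5 rose under isoflurane, against 24.4% and 25.7% of all genes, and 4 fell and 4 rose under propofol, against 21.7% and 20.4%. Slc38a2, an importer of small neutral amino acids that starved cells induce, rose in both arms (1.31 ± 0.13 (SE), adjusted p = 0.000129; 1.35 ± 0.18 (SE), adjusted p = 0.000378), as did the cationic amino acid carrier Slc7a2 (0.66 ± 0.17 and 1.36 ± 0.20). Slc38a3, the glutamine carrier of hepatocytes, fell in both (-0.65 ± 0.08 and -0.60 ± 0.06), and so did Slc6a12, a carrier of betaine (-2.06 ± 0.11 and -1.57 ± 0.17), and Aqp9, a channel for glycerol and urea (-0.89 ± 0.07 and -0.89 ± 0.11). Slc25a15, which carries ornithine into mitochondria, rose under propofol alone by the test (log2 fold change 0.90 ± 0.19 (SE), adjusted p = 0.00447).

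Among the regulators of these enzymes, Hnf4a, the glucagon receptor Gcgr and the mitochondrial deacylases Sirt3 and Sirt5 fell in both arms. Gcgr, through which glucagon induces urea cycle enzymes, changed by -1.11 ± 0.20 and -0.98 ± 0.14, and Sirt5, which activates carbamoyl phosphate synthetase, by -0.88 ± 0.11 and -0.94 ± 0.13 (log2, SE, isoflurane first). Cebpb rose in both (1.501 ± 0.33 (SE), adjusted p = 0.00551; 0.59 ± 0.19 (SE), adjusted p = 0.0288). Cebpa, a factor that drives urea cycle genes, and Sik1, a kinase that restrains the response to cAMP, rose under isoflurane (1.17 ± 0.25 and 1.59 ± 0.23), with a difference between the arms that passed (1.22 ± 0.28, adjusted p = 0.0366, and 1.44 ± 0.37, adjusted p = 0.0486).

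Arginine's other uses moved with Nos2 in part. Gch1, which starts the synthesis of the cofactor that Nos2 needs, rose under isoflurane (0.30 ± 0.08 (SE), adjusted p = 0.0107) and fell under propofol (-0.33 ± 0.10 (SE), adjusted p = 0.0216), and the difference passed (adjusted p = 0.0249). Nos3, the endothelial synthase, rose in both (0.54 ± 0.12 and 0.72 ± 0.16, SE), and Ddah1, which clears a natural inhibitor of the synthases, fell under isoflurane (-0.64 ± 0.09 (SE), adjusted p = 0.000526). Its relative Ddah2 went the other way and passed as higher under isoflurane, as did Nos1. All 7 genes of this list were tested under isoflurane, but 6 under propofol and between the controls. The reads behind Nos1 are not given, so its call may rest on reads in the sepsis libraries alone. Among 9 further polyamine genes, Sat1, which acetylates polyamines for export and breakdown, rose 5.05-fold under isoflurane (log2 fold change 2.34 ± 0.43 (SE), adjusted p = 0.00237) and 2.87-fold under propofol (1.52 ± 0.23 (SE), adjusted p = 0.0008205). Smox, the spermine oxidase, rose under isoflurane (2.59 ± 0.47 (SE), adjusted p = 0.0022).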

How the data were processed

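RNA-seq was made by the authors from rat liver, 16 libraries of 3 pooled rats. The deposited files hold whole read counts per gene, not normalized; per the labels' processing notes reads were aligned to rn5 with STAR. The sources used here do not give the counting program, versions, strand setting or annotation. The 2 entries that name no gene were left out: reads outside genes (21.6% to 25.4% of a library's reads) and ambiguous reads (1.07% to 1.35%).

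Counts were scaled by TMM and tested with edgeR 4.0.16 (glmQLFit and glmQLFTest, R 4.3.3) over all genes kept by filterByExpr (minimum count 10, minimum total 15), with Benjamini-Hochberg adjustment over all genes tested and a threshold of 0.05. Each comparison of 2 groups was fitted on its 8 libraries, and the interaction on all 16. Ratios were log2 of reads with 0.5 added, tested by a two-sided exact permutation test. Replicates are pools, so p-values measure the spread between pools. The test was checked on simulated counts. Alternatives were DESeq2 1.42.0, limma-voom (limma 3.58.1), other scalings, filters, thinning, a threshold of 0.01, and leaving out each library. Promoters came from RefSeq (GRCr8), with 39 of 51 members matched by symbol. Plots used Python 3.11.15 with matplotlib 3.10.9.

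Members and lists were chosen with earlier results of these data known. Values in every library are given for Cps1, Otc, Ass1, Asl and Arg1 and for members called with a log2 change beyond 1.0 in either direction under either anesthetic, or called in the interaction; genes of further lists are named where called with a change beyond that size, or where a count is small. Others named, and the promoters printed, were chosen after their values were seen.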

Additional observations from a re-analysis of the deposited data

Results flagged for a closer look

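Single libraries stood far from the other 3 of their group by Dixon's test in 9 of 236 combinations of a group with a member or one of the 8 ratios, a test that about 5% of groups pass by chance. Library 5 was the lowest Isoflurane control for Cps1 (5152 CPM), Gls2 (164.7 CPM) and Tdo2 (2128 CPM), and library 8 the highest for Pcca (53.97 CPM). Library 4 was the highest Isoflurane-Sepsis library for Tat (3044 CPM) and the lowest for Pccb (102.7 CPM). Library 10 was the highest Propofol-Sepsis library for Arg2 (0.4399 CPM) and the lowest for Gpt (49.56 CPM), and library 13 the lowest Propofol control for Cdo1 (328.0 CPM).

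The response to sepsis differed between the anesthetics by the interaction test for Nags (-1.26), Got1 (-2.08), Gpt2 (-1.23) and Aass (-0.82), all as the isoflurane minus the propofol log2 change. For Tdo2 every Isoflurane-Sepsis library lay below its control mean and every Propofol-Sepsis library above, and the interaction (-0.63) did not pass edgeR's test (adjusted p = 0.0674).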

How the results depend on the processing

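No paired analysis was possible because the libraries are numbered 1 to 16 and no number is shared between groups. At a threshold of 0.01 the members called fell to 15 lower and 1 higher under isoflurane and 13 and 4 under propofol. Between controls 7 were lower, between sepsis groups 1 was lower and 1 higher, and in the interaction 0 were called. In the interaction 14 members had an unadjusted p below 0.05 by edgeR, as had 2452 of 10621 genes. DESeq2 called 6 members there at 0.05, and 847 genes over all. With library totals alone there was 1 higher under isoflurane, a median of 0.0278 between controls, and 14 lower and 5 higher between sepsis groups. With no filter 1 was higher under isoflurane and 2 were lower in the interaction. With all 16 libraries in one fit 14 were lower under propofol, and 17 were higher and 8 lower between controls. Leaving out 1 library gave 1 to 3 higher under isoflurane, 5 to 12 lower and 1 to 12 higher between sepsis groups, and 1 to 7 lower in the interaction. Over all genes these fits called 39.7% to 54.2% under isoflurane, 2.41% to 27.7% between sepsis groups and 0.504% to 15.1% in the interaction. The cause of these shifts was not tested. The median member between sepsis groups ran from -0.17 to 0.04 when 1 library was left out, above 0 without library 4. Among ratios that passed no test, Arg2 over Arg1 under isoflurane ran from -0.0346 to 0.376 and Glul over Gls2 under propofol from -0.176 to 0.0976, and with 2 reads added Arg2 over Arg1 under propofol was 0.818 in place of 1.76.

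Signs of members' changes turned only where the change did not pass the test with all libraries. Among the members given in every library, those turned by library totals alone were Ass1 under propofol (-0.0479), Prodh between controls (-0.0889) and Tat between sepsis groups (-0.0251). With no filter Ass1 under propofol turned (-0.00284), and after thinning Otc in the interaction (-0.00450). Leaving out 1 library, the log2 changes under isoflurane ran from -0.0517 to 0.346 for Asl, -0.0631 to 0.224 for Got1 and -0.754 to 0.101 for Sds, and under propofol from -0.0536 to 0.0669 for Ass1. Between controls they ran from -0.236 to 0.0111 for Nags and -0.00747 to 0.127 for Prodh, between sepsis groups from -0.350 to 0.113 for Hgd and -0.302 to 0.0809 for Ftcd, and in the interaction from -0.0329 to 0.0537 for Otc. Outside these members, library totals alone turned Oat under isoflurane, Tdo2 and Cdo1 under propofol, Gstz1, Bckdha, Ivd, Mccc1, Mccc2 and Gcdh between controls, and Hibadh and Cdo1 between sepsis groups. No filter turned Cdo1 under propofol, thinning turned Hibadh between sepsis groups and Sdsl in the interaction, and limma-voom turned Hibadh between sepsis groups and Glud1 in the interaction. Depth limits Arg2 and the control levels of Nos2.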
